A study of Rattus norvegicus with 6 samples.

Results

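Glyatl1, Glyat, Acsm2, Acsm3, Acsm5, Gatm, Gldc, Gcsh and Amt are the 9 genes described here, rat genes of medium-chain acyl-CoA formation, glycine N-acyl transfer and glycine use. They were chosen by name, with the difference between treated and control rats already known, and their probes were found through the RefSeq accession that the array gives for each probe. Of the 9 genes, 8 had a matched probe, 12 probes in all, and every one of the 12 was well above background on all 6 arrays. Gldc had no matched probe and was not analysed here. The arrays gave a symbol to probes of 15284 genes. RNA came from the renal cortex of 3 anthraquinone rats, male Sprague-Dawley (Crl:CD(SD)) animals that received this tricyclic quinone at 1000 mg/kg/day for 4 weeks, and of 3 corn oil rats, males of that strain that received corn oil over the same weeks. All were 5 weeks old when bought, and each rat had its own 1-colour array. The stock is outbred, the tissue is a mixture of cell types, and 1 dose and 1 time were studied. By its title, the series asks how anthraquinone alters gene expression in this tissue.

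In the mitochondria of kidney and liver cells, carboxylic acids such as benzoate are first joined to coenzyme A by medium-chain acyl-CoA synthetases of the ACSM family. Glycine N-acyltransferases then pass the acyl group to glycine, and the product, hippurate in the case of benzoate, leaves in the urine. The same glycine is drawn on by arginine:glycine amidinotransferase, which starts creatine synthesis in the proximal tubule, and by the glycine cleavage system, a mitochondrial complex that breaks glycine down to a one-carbon unit, ammonia and carbon dioxide.

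Across these genes the glycine N-acyltransferase-like gene Glyatl1 was 2.72-fold lower in anthraquinone rats, while its chromosomal neighbour Glyat, the classical glycine N-acyltransferase gene, was 1.13-fold lower. The synthetase gene Acsm2 differed by 0.03 on the log2 scale, Acsm3 and Acsm5 had higher means but differed widely between rats of one group, and Gatm, Gcsh and Amt had group ranges that overlapped. Values below are log2 levels, that is the log2 processed intensity of a probe minus the log2 of the 75th percentile of its array, and differences are anthraquinone minus corn oil on that scale. Levels of different probes are not comparable with each other. Because the difference between the groups helped to choose the genes, their values are given as a description and without a test. Of the 8 measured genes 1, Glyatl1, was past limma's adjusted threshold of 0.05 over all 32663 gene entries, of which 0.0276% were, and 0.0122% in the lower direction. Glyatl1 was no longer past it with the slide or the replicate number as a block, or in 5 of the 6 fits that left out an array, those without anthraquinone replicate 1, 2 or 3 or corn oil replicate 1 or 2. The groups did not overlap for 2 of the 8, Glyatl1 and Glyat, both lower with anthraquinone, against 10.2% of all entries that were lower without overlap and 15.0% that were higher without overlap. Of the 8 differences 3 were negative, against 48.4% of all entries. The median difference was 0.08 over the 8 genes and 0.01 over all entries. In bulk tissue, fewer cells of a type and less RNA per cell cannot be told apart.

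**Figure D1:**
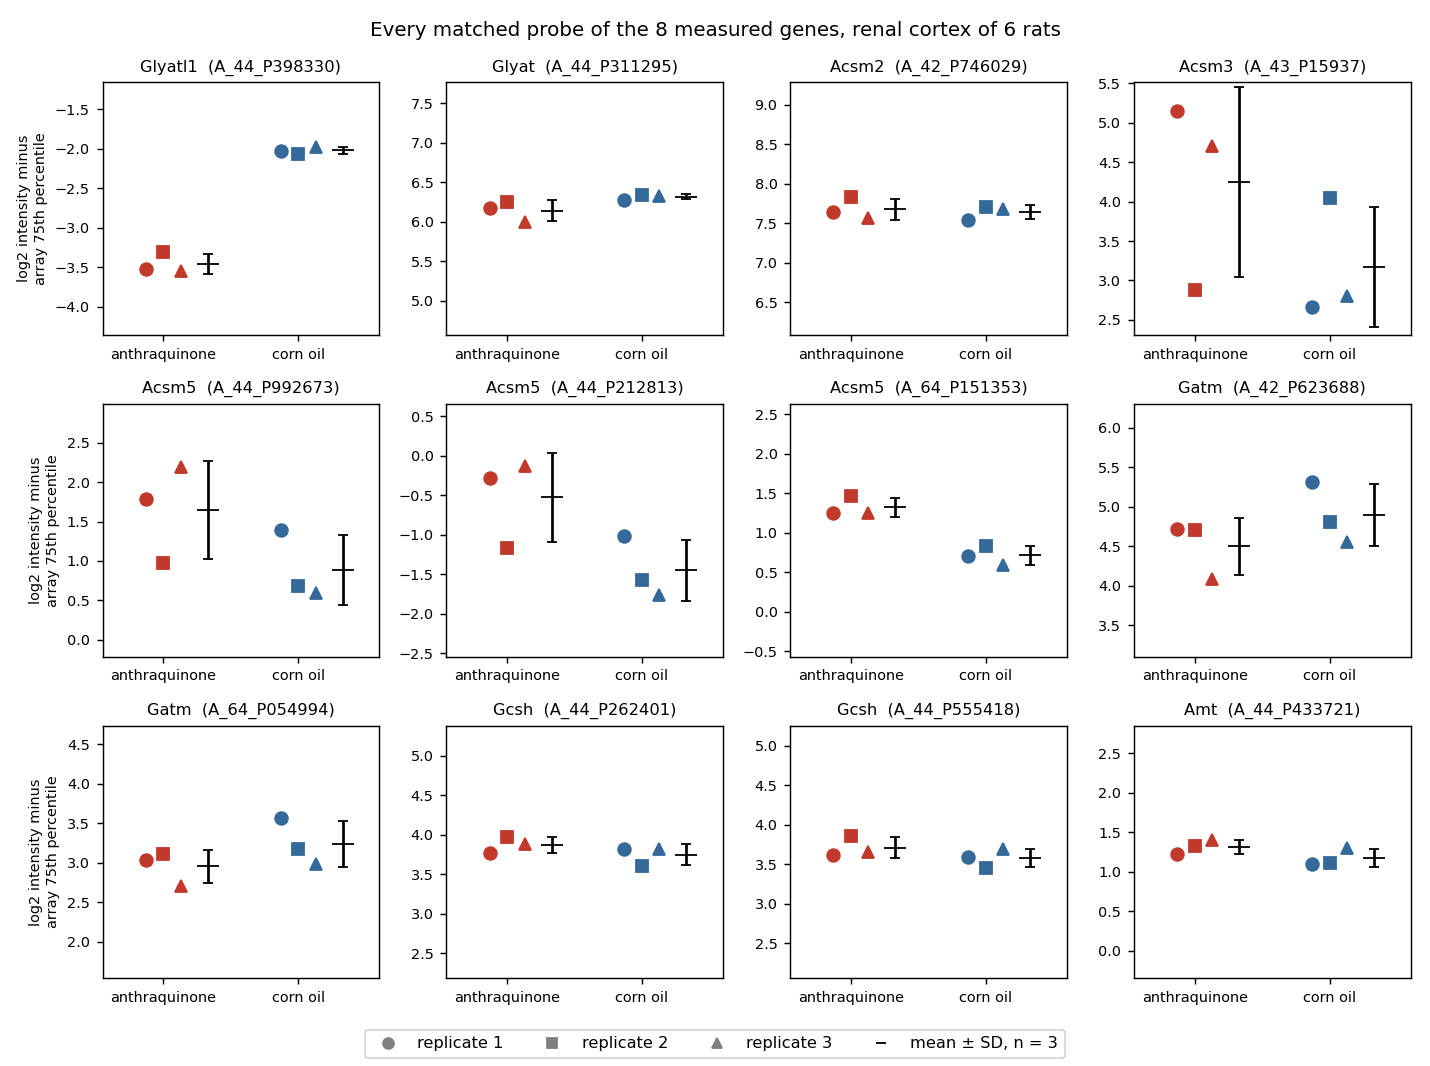
Level of each of the 12 matched probes (log2 intensity minus the array's 75th percentile, every panel spanning the same range of log2 units) in 3 anthraquinone rats (left, red) and 3 corn oil rats (right, blue), with replicates 1, 2 and 3 as circles, squares and triangles and the mean ± SD beside them. The Glyatl1 groups lie far apart, the Acsm3 points scatter within both groups, and the Acsm5 probe A_64_P151353 separates the groups while the other Acsm5 probes do not.

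The promoters of Glyatl1, the gene with the widest gap between groups, of Acsm3, the gene with the widest scatter between rats, and of Acsm2, a gene of the same cluster as Acsm3 with a difference near 0, are printed to show the start regions of genes that behaved unlike each other. RefSeq sequences of assembly GRCr8, from 250 bases before to 50 after the annotated start, matched 8 of the 9 genes, all but Glyat. They lie at chr1:219101798-219102097 for Glyatl1, chr1:183564402-183564701 for Acsm3 and chr1:183347455-183347754 for Acsm2, all on the plus strand, and capitals mark matches on either strand to the TATA box searched as TATAAA, the HNF1 half-site GTTAAT, the nuclear receptor half-site AGGTCA, the core of the antioxidant response element TGACNNNGC or the CCAAT box, with no overlap between matches in these promoters.
Glyatl1: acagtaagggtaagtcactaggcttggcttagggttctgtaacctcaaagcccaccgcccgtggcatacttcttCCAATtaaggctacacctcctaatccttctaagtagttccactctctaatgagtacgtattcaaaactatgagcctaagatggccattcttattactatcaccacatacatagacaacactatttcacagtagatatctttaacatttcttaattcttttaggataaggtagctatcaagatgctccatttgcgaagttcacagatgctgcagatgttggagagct
Acsm3: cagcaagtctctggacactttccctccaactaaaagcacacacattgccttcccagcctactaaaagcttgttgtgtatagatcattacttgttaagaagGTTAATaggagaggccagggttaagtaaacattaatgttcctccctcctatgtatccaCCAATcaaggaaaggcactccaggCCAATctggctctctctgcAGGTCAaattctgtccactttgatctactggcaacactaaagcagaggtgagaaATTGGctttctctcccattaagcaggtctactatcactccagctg
Acsm2: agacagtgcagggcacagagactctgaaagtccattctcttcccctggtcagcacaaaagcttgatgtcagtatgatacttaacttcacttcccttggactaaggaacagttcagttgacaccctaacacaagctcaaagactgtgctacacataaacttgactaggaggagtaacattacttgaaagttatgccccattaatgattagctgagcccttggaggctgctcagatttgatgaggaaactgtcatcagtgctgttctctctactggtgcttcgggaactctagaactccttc
The Glyatl1 window held 1 match, a CCAAT box, and the Acsm2 window held none. The Acsm3 window held 3 CCAAT box matches, 1 HNF1 half-site and 1 nuclear receptor half-site. Among all 33469 promoters of the table, 37.5% held the CCAAT box, 7.45% the HNF1 half-site, 16.2% the nuclear receptor half-site, 12.1% the antioxidant response element core and 14.2% the TATA box. The antioxidant response element core had no match in these 3 windows and 1 in that of Gcsh. A match of letters is a description of the sequence and not of a bound site.

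Acsm2 encodes a medium-chain synthetase that, in its human form, activates benzoate. Its level was 7.64, 7.83 and 7.56 in anthraquinone rats 1, 2 and 3 and 7.54, 7.71 and 7.68 in corn oil rats 1, 2 and 3, so the groups overlapped. The difference was 0.03, against an SD of 0.14 within the anthraquinone group and 0.09 within the corn oil group (n = 3 each). It changed sign without corn oil replicate 1 (-0.02) or anthraquinone replicate 2 (-0.04) and after quantile normalization (-0.17).

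Acsm3, first described in rats as the SA gene of hypertensive strains, encodes another mitochondrial synthetase of this family. It had levels of 5.15, 2.88 and 4.70 in anthraquinone rats and 2.67, 4.04 and 2.80 in corn oil rats. Rats 1 and 3 of the anthraquinone group and rat 2 of the corn oil group were the 3 highest, and the groups overlapped. The means were 4.24 ± 1.20 in anthraquinone rats and 3.17 ± 0.76 in corn oil rats (SD, n = 3 each), a difference of 1.07. Leaving out anthraquinone replicate 1 gave 0.62, leaving out anthraquinone replicate 2 gave 1.76, and leaving out corn oil replicate 2 gave 1.51. The pooled within-group SD of Acsm3 was 1.00, larger than that of 99.3% of entries, whose median was 0.14.

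The scatter of Acsm3 was shared by genes beside it on chromosome 1. In the RefSeq order Acsm5, Acsm2, RGD1559600, Acsm1 and Acsm4 are followed by Thumpd1, a gene of RNA modification, the exonuclease gene Eri2, Acsm3 and Rexo5, another exonuclease gene. Rexo5 had levels of -1.84, -3.67 and -2.20 in anthraquinone rats and -3.22, -2.38 and -3.55 in corn oil rats. Thumpd1 had levels of 1.32, 0.13 and 0.72 in anthraquinone rats and 0.26, 0.74 and 0.16 in corn oil rats. Eri2 had levels of -1.62, -2.06 and -1.88 in anthraquinone rats and -2.36, -1.94 and -2.33 in corn oil rats. In all 3 neighbours, as in Acsm3, anthraquinone rats 1 and 3 and corn oil rat 2 were the 3 highest, which cuts across the treatment. Among the 18 protein-coding genes from Gprc5b to Ldaf1, 13 were tested, and 4 of the other 12 shared the 3 highest rats of Acsm3, the fourth being the thick ascending limb gene Umod. Over all 32649 complete entries 3.47% did, but the stretch was picked after this pattern was seen, so the share is a description only. Among the probes, all 3 of Thumpd1 and 2 of the 4 of Eri2 showed this order. The span of Acsm3 lies inside that of Eri2 in the GRCr8 annotation, and whether their probes read shared transcripts was not tested. Rexo5 was also the gene with a symbol, among 11820, whose centred profile over the 6 arrays was nearest to that of Acsm3, with a root mean square difference of 0.36 log2 units, followed by Mfsd10 (0.39) and Gstm1 (0.45).

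**Figure D2:**
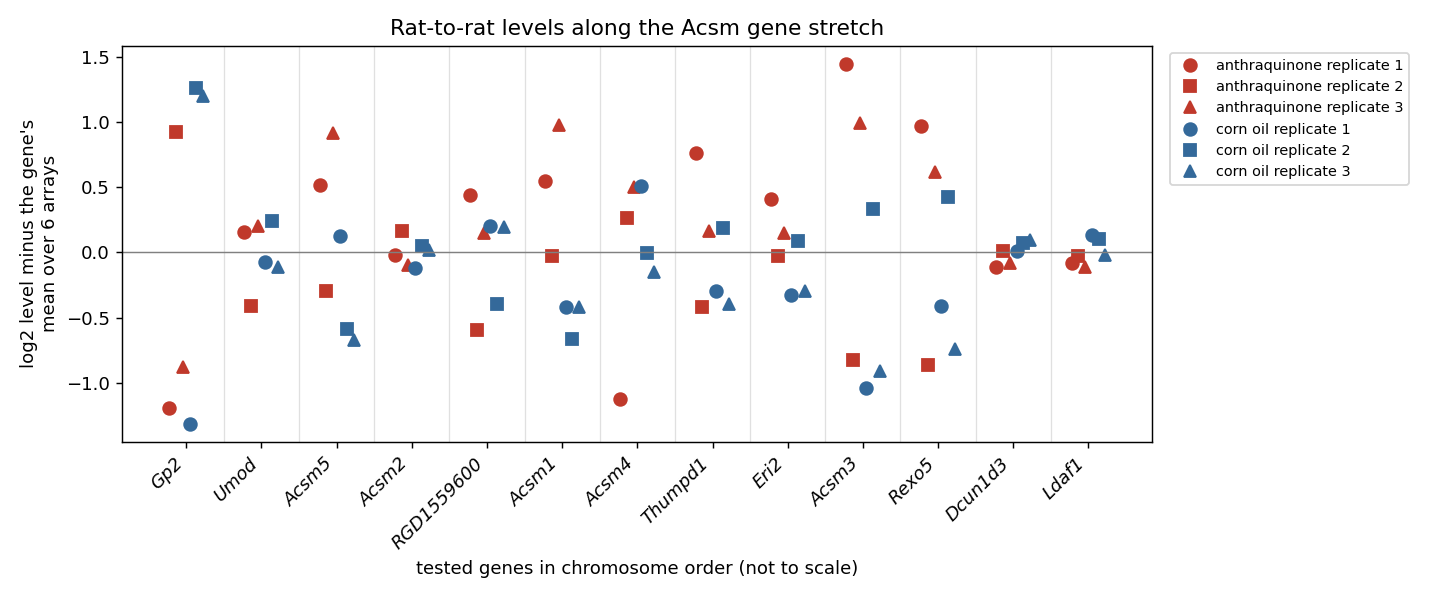
Log2 level of each tested gene in the Acsm stretch of chromosome 1 minus that gene's mean over 6 arrays, with genes in RefSeq order and not to scale, for 3 anthraquinone rats (red) and 3 corn oil rats (blue), replicates 1, 2 and 3 as circles, squares and triangles. Thumpd1, Eri2, Acsm3 and Rexo5 have the same 3 rats on top, while Acsm2 hardly varies.

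Acsm5, a further synthetase gene of the cluster, was read by 3 probes that did not scatter alike. The brightest, A_44_P992673, had levels of 1.78, 0.97 and 2.19 in anthraquinone rats and 1.39, 0.68 and 0.59 in corn oil rats, and the groups overlapped. A_44_P212813 had the same order of rats within each group, at -0.27, -1.17 and -0.13 in anthraquinone rats and -1.01, -1.57 and -1.76 in corn oil rats. A_64_P151353 differed from both, at 1.25, 1.46 and 1.25 in anthraquinone rats and 0.71, 0.83 and 0.60 in corn oil rats, so that on this probe the groups were apart and anthraquinone rat 2 was the highest rat. The differences were 0.76, 0.93 and 0.61 in this order, all positive, with SDs of 0.62, 0.56 and 0.12 in the anthraquinone group and 0.44, 0.39 and 0.12 in the corn oil group (n = 3 each). On the brightest probe, which stood for the gene, leaving out anthraquinone replicate 3 gave 0.49.

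Glyatl1 encodes a relative of glycine N-acyltransferase whose human form has been described to use glutamine as acceptor. Its single probe was dim, with processed intensities of 76.3, 87.5 and 72.4 in anthraquinone rats and 293, 217 and 244 in corn oil rats. On the log2 scale the levels were -3.53, -3.31 and -3.54 in anthraquinone rats and -2.02, -2.06 and -1.97 in corn oil rats, so that a gap of 1.25 lay between the groups. The difference of -1.44 ranged from -1.52 to -1.40 when each array was left out in turn and was -1.44 within the slide that held 5 of the 6 arrays. On that slide the 3 anthraquinone arrays lay in row 2 and both corn oil arrays in row 1, so that row and treatment cannot be told apart there. The normexp correction on median spot signals gave -0.97. The 3 genes with a symbol whose centred profiles were nearest to that of Glyatl1 were the keratin gene Krt76, the cytochrome oxidase subunit gene Cox8b and the growth factor gene Bmp3, with root mean square differences of 0.19, 0.20 and 0.23 log2 units over 6 arrays.

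Glyat had levels of 6.18, 6.25 and 5.99 in anthraquinone rats and 6.28, 6.34 and 6.33 in corn oil rats. The groups stood apart by 0.03, less than the SD of 0.13 within the anthraquinone group. Leaving out anthraquinone replicate 3 turned the difference of -0.18 into -0.10, and quantile normalization gave -0.36. Glyatl2, which lies on the far side of a pair of olfactory receptor genes from Glyat, had a difference of 0.30 on each of its probes with overlapping groups. Glyatl3 was not well above background on any anthraquinone array and entered the fit only through the corn oil arrays. That route favours a lower value with anthraquinone, so its difference, at least 1.14-fold lower, is a description only. The naming rule does not pick Glyatl2 or Glyatl3, whose values were known when they were added here. Of this family, Glyatl1 was the one member with a difference beyond 1 log2 unit, which 1.13% of all entries had in the same direction.

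**Figure D3:**
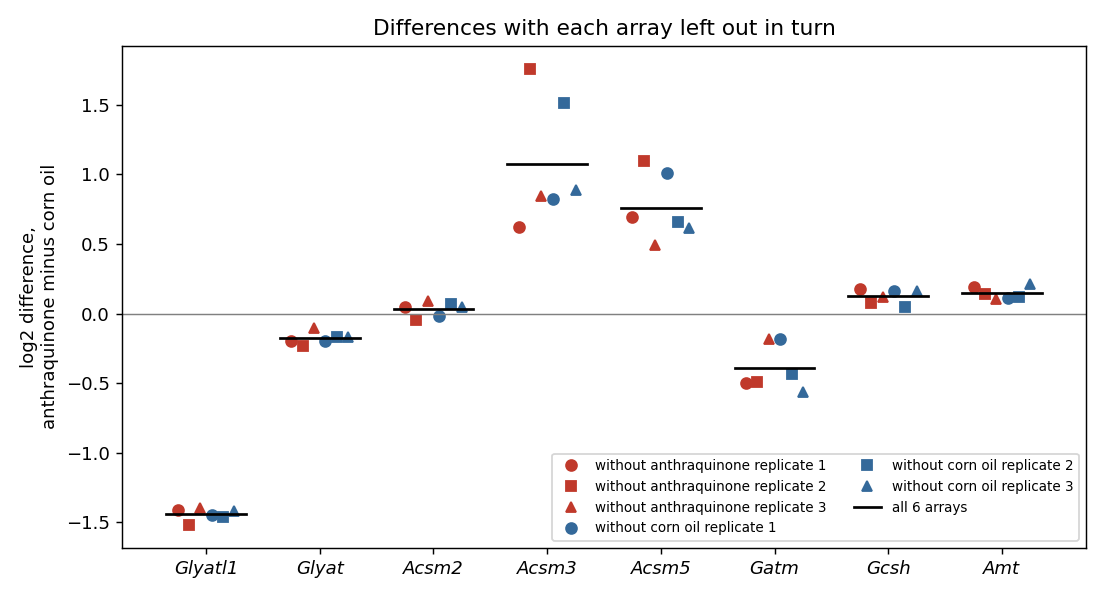
Difference of each gene (anthraquinone minus corn oil, log2 units) with all 6 arrays (black line) and with each array left out (red: an anthraquinone array, blue: a corn oil array, replicates as circles, squares and triangles). Glyatl1 stayed between -1.52 and -1.40, Acsm3 ranged from 0.62 to 1.76, and Acsm2 took either sign.

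Gatm encodes the amidinotransferase that makes guanidinoacetate, the precursor of creatine. It had levels of 4.72, 4.70 and 4.09 in anthraquinone rats and 5.32, 4.81 and 4.56 in corn oil rats, with anthraquinone rat 3 lowest, corn oil rat 1 highest and the groups overlapping. Its second probe kept that order at the ends, and the differences were -0.39 and -0.29. For the brighter probe, leaving out corn oil replicate 1, the array alone on its slide, gave -0.18, and leaving out anthraquinone replicate 3 gave -0.19. Of the glycine cleavage system, Gcsh encodes the lipoyl carrier protein and Amt the aminomethyltransferase. Gcsh had levels of 3.76, 3.97 and 3.88 in anthraquinone rats and 3.82, 3.60 and 3.82 in corn oil rats, and its probes gave differences of 0.12 and 0.13. Amt had levels of 1.23, 1.33 and 1.40 in anthraquinone rats and 1.10, 1.11 and 1.30 in corn oil rats, a difference of 0.15. Both genes overlapped between groups, and the difference was 1.06 times the pooled within-group SD for Gcsh and 1.46 times it for Amt. The SDs for Gcsh were 0.10 in anthraquinone rats and 0.13 in corn oil rats, and for Amt 0.09 in anthraquinone rats and 0.11 in corn oil rats (n = 3 each).

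No rat was the lowest or the highest of its group for all 8 genes. In the anthraquinone group rat 3 was lowest for 4 genes, rat 1 for 2 and rat 2 for 2. Compared with the corn oil range, anthraquinone rat 3 was below it for 3 genes and above it for 4, rat 2 below for 2 and above for 3, and rat 1 below for 2 and above for 2.

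The wider pathway was read from 6 lists of related genes, with 119 symbols of which 113 had a probe and 103 were tested. These genes were listed by their known roles, with earlier results of these data known, and each was tested with limma adjusted over all entries. None of the 103 passed limma's adjusted threshold (0 higher, 0 lower), and at an unadjusted p under 0.05 there were 9 higher and 11 lower, 19.4% of the 103 against 17.1% of all entries. The groups did not overlap for 22.3% of them, against 25.2% of all entries. Their median difference was 0.04.

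Among the other synthetases, Acsm1 had the largest difference of those without overlap. It lies between Acsm2 and Acsm3 in the cluster and had levels of 3.16, 2.59 and 3.59 in anthraquinone rats and 2.20, 1.96 and 2.20 in corn oil rats. Its difference was 1.00 ± 0.25 (SE, limma adjusted p = 0.195), a second probe gave 1.05, and every anthraquinone rat was above every corn oil rat on both. The long-chain synthetase gene Acsl5 (-0.25 ± 0.09) and the fatty acid transport protein genes Slc27a3 (-0.43 ± 0.14) and Slc27a4 (-0.25 ± 0.09) had lower values without overlap. Slc27a3 was -0.15 with the normexp correction and -0.28 without corn oil replicate 3. The list of 17 tested members had a median of 0.04.

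Glycine-forming and glycine-using enzymes had a median of 0.03 over 32 tested members. At an unadjusted limma p under 0.05, 5 of the 32 were higher and 2 lower, against 17.1% of all entries in either direction. The 2 lower ones were Sdsl and Tdh, the latter named after its value was seen. Tdh was well above background on 2 of 3 anthraquinone arrays and entered the fit only through the corn oil arrays. That route favours a lower value with anthraquinone. Gcat, whose enzyme splits a threonine product into glycine and acetyl-CoA, had levels of 3.23, 3.16 and 2.96 in anthraquinone rats and 2.61, 2.53 and 2.50 in corn oil rats. Its difference of 0.57 ± 0.09 (SE) did not pass (limma adjusted p = 0.141), and its second probe gave 0.45 without overlap. Gcat passed when dim probes were kept in the fit (limma adjusted p = 0.0199, range 0.0199 to 0.346 over 17 alternatives), a setting in which 6611 of 49481 entries passed. The serine racemase gene Srr (0.42 ± 0.13), the serine synthesis gene Phgdh (0.26 ± 0.09) and the mitochondrial glycine-serine exchange gene Shmt2 (0.24 ± 0.09) had higher values without overlap, and the serine dehydratase-like gene Sdsl (-0.73 ± 0.23) had lower ones. Without corn oil replicate 1, which is also the slide block, Sdsl was -0.48, and after quantile normalization Phgdh was 0.09. Dld, the fourth component of the cleavage system, had a difference of 0.00 and was named after its value was seen.

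In the remaining lists the medians lay between -0.18 and 0.12. Amino acid acyl transfer genes had a median of -0.09 over 11 members, and of these Pm20d1 (-0.44 ± 0.11), whose mouse product makes N-acyl amino acids, and Nat8 (-0.34 ± 0.13), whose product acetylates cysteine conjugates, were lower without overlap. Coenzyme A and thioesterase genes had a median of 0.12 over 22 members. On the probe that stood for the gene, the pantothenate kinase gene Pank3 (0.29 ± 0.09) and the thioesterase genes Acot8 (0.27 ± 0.12), Acot13 (0.25 ± 0.08) and Acot4 (0.22 ± 0.11) were higher without overlap. On another probe the groups overlapped for Pank3 (0.135), Acot8 (0.175) and Acot4 (0.137), while a further Acot4 probe (0.222) was higher without overlap. Leaving out anthraquinone replicate 3 gave 0.15 for Acot8 and 0.12 for Acot4, and quantile normalization gave 0.14 for Acot8 and 0.12 for Acot4. The creatine list had a median of -0.18 over 10 members, with the creatine kinase genes Ckb (0.32 ± 0.11) and Ckmt1 (-0.31 ± 0.11) apart in opposite directions. Of 11 glycine carriers and receptors, Slc6a18, an apical amino acid transporter gene of the proximal tubule that carries glycine in mice, was lower on all 3 of its probes (-0.48 ± 0.13 on the brightest, -0.42 and -0.34 on the others). Limma's adjusted p for the genes named in this paragraph ran from 0.198 to 0.364.

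**Figure D4:**
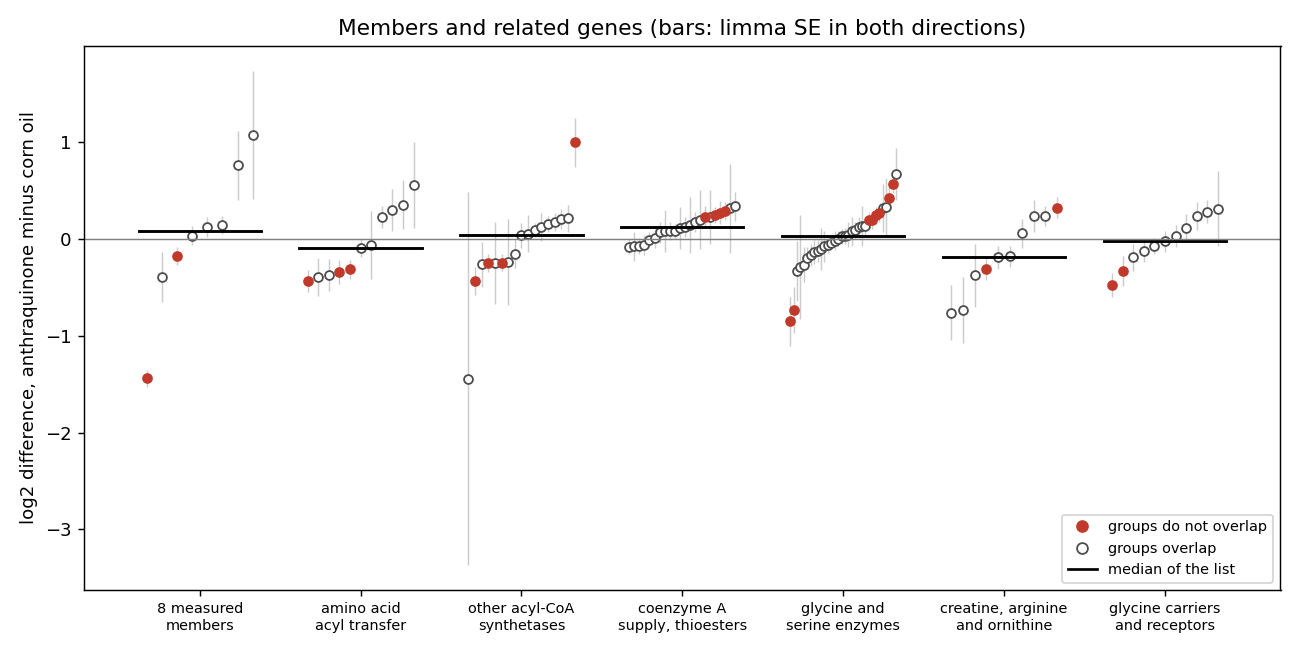
Difference (anthraquinone minus corn oil, log2 units, with the limma SE) of the 8 measured genes and of the tested genes of 6 related lists, each sorted from low to high. Red points had groups that did not overlap, open points overlapped, and the black lines are medians, which lie between -0.18 and 0.12.

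All 15 proximal tubule markers, the cell type in which glycine conjugation and creatine synthesis take place in the kidney, were measured. Levels of a marker list were summed in multiples of the array's 75th percentile, so that its brightest probes weigh most. For the proximal tubule markers the sum was 2435 to 2790 in anthraquinone rats and 2404 to 2726 in corn oil rats. None of them passed (limma adjusted over all entries), and their median was 0.05. At an unadjusted limma p under 0.05, 1 of the 15 was higher and 0 lower, against 17.1% of all entries in either direction. Slc7a13, a marker of the last proximal segment, had the largest value, -1.16 ± 0.51 (SE, limma adjusted p = 0.311). The summed level of collecting duct markers, 8 of 8 measured, was lower without overlap, at 205 to 251 in anthraquinone rats and 258 to 278 in corn oil rats. Scnn1b was at -0.72 ± 0.09 (SE, limma adjusted p = 0.108). It passed with an intensity trend (limma adjusted p = 0.0406), where 58 of 32663 entries passed. With dim probes kept it passed too (limma adjusted p = 0.0199), where 6611 of 49481 entries did. The collecting duct list did not move as one. Of its 8 members 6 had negative differences, against 48.4% of all entries, with a median of -0.21. Without overlap 3 were lower and 1 higher, against 10.2% and 15.0% of all entries. The lower ones were Scnn1b, Hsd11b2 (-0.49 ± 0.15) and Scnn1g (-0.46 ± 0.15), and the higher one was Slc4a1 (0.35 ± 0.10). Aqp2 (-0.34), Foxi1 (-0.07), Slc26a4 (-0.05) and Atp6v1g3 (0.01) overlapped. All of these but Scnn1b were named after their values were seen. For thick ascending limb and distal markers, 6 of 8 tested, the sums were 426 to 619 in anthraquinone rats and 531 to 640 in corn oil rats, with Calb1 at -0.62 ± 0.19. All 6 differences were negative, against 48.4% of all entries, with a median of -0.35. Of the 6, 3 were lower without overlap, against 10.2% of all entries. Umod, which weighs most in this sum, was at -0.03 and was named after its value was seen. For podocyte and endothelial markers, 8 of 8, the sums were 54.7 to 62.3 in anthraquinone rats and 60.2 to 62.5 in corn oil rats. For leukocyte and stroma markers, 8 of 10, they were 14.4 to 15.5 in anthraquinone rats and 12.8 to 15.1 in corn oil rats. Cd79b, well above background on 1 of 3 anthraquinone arrays and all 3 corn oil arrays, had a measured difference of -1.40 that was -0.29 with the normexp correction. That list had 3 positive and 5 negative differences. Without overlap 1 member, Cd79b, was lower and 1 higher, against 10.2% and 15.0% of all entries. Cd79b entered the fit only through the corn oil arrays, a route that favours a lower value with anthraquinone. The higher one was C1qa (0.39 ± 0.13), well above background on every array and named after its value was seen. Of 6 hepatocyte markers, which matter here because liver expresses the same conjugation genes, 1 was tested, Apoa1. It was well above background on 1 of 3 anthraquinone arrays and entered the fit only through the 3 corn oil arrays. That route favours a lower value with anthraquinone, so its difference is a description only. Its values were -5.38, -4.86 and -6.48 in anthraquinone rats and -1.71, -5.65 and -5.23 in corn oil rats. The difference was -1.37, and -0.13 without corn oil replicate 1. No probe of albumin (Alb) was well above background on more than 1 array of a group. Among the other hepatocyte markers, Cps1 was well above background on 1 anthraquinone array. Its values were -7.45, -5.02 and -2.16 in anthraquinone rats and -7.92, -8.07 and -8.12 in corn oil rats. Serpina1 was well above background on 2 corn oil arrays, and Ttr and Tat were on none. The part of the marker genes of all lists in the values above was not tested.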

How the data were processed

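Renal cortex RNA of 6 rats was hybridised to Agilent 1-colour arrays. The deposited scanner files hold spot intensity, corrected for background and spatial trend within each array and not scaled between arrays. Per the file headers the scanner software was Feature Extraction version 10.7.1.1 (10.7 per the submitters' processing notes). The deposited value table holds intensity that, set against the scanner files, is linear and divided by a constant close to each array's 75th percentile, with column medians of 0.109, 0.111 and 0.110 in anthraquinone and 0.109, 0.113 and 0.114 in corn oil arrays 1, 2 and 3. It is not centred by gene, and no header states its scale.

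Processed intensity was divided by the 75th percentile over 61657 non-control probes and put on the log2 scale. That percentile was 844 to 880 in anthraquinone and 903 to 1191 in corn oil arrays, and 64.2 to 66.1% of probes in anthraquinone and 68.7 to 70.7% in corn oil arrays were well above background. Outlier spots (2 to 13 per array) were left out. The 41310 probes that every array of 1 group or both placed well above background were tested, with the brightest probe standing for a gene. Symbols came from RefSeq accessions (assembly GRCr8, names and gene order only, 27460 probes matched). The other tested probes stood for themselves. Groups were taken from the sample titles and compared with limma 3.58.1 (R 4.3.3, lmFit and eBayes) over 32663 entries with Benjamini-Hochberg adjustment at 0.05. The series' design text calls the 3 samples of a group biological replicates, and their number limits the precision. Because the array of corn oil replicate 1 was by itself on a slide, the slide block is the same comparison as leaving it out. Same-numbered rats did not deviate together (correlations across entries of 0.03, -0.06 and -0.01). With 3 rats in a group these values cannot show whether the numbers pair the samples, and the main fit treats them as unpaired. The procedure was tested on simulated data. Alternatives covered background correction, scaling, the value table, the dim-probe filter, probe averaging, variance models, slide and replicate blocks and each array left out. The planned normexp correction used median spot signals.

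The genes and lists were chosen with earlier results of these data known. All 9 chosen genes are named. From each related list the text names genes past the threshold and up to 4 in each direction whose groups, both above background, did not overlap, and from each marker list the member with the largest difference, of which 1 is not reported here. Profiles most like Glyatl1, or another chosen gene differing by 1 log2 unit or more, were the 3 nearest by root mean square difference after centring.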

Additional observations from a re-analysis of the deposited data

How the results depend on the processing

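Over the 17 alternatives, 3 of 136 values of the 8 chosen genes moved by more than the pooled within-group SD: Glyatl1 with the normexp correction (-0.97) and Glyat (-0.36) and Acsm2 (-0.17) after quantile normalization. Glyatl1 was negative in all 17 and past the threshold in 10. It was past it in 1 of the 6 fits that left out an array, that without corn oil replicate 3. The count of chosen genes past the threshold was 0 with the slide block, 0 with the replicate block and 0 to 1 with each array left out. The count over all entries, 9, was 16 with the normexp correction, 6611 without the filter on dim probes, 58 with an intensity trend, 2 with the slide block, 1 with the replicate block and 1 to 25 with each array left out. Without the filter 6053 were higher and 558 lower, and 4 related genes passed, Gcat and the dim Glrb, Slc27a6 and Slc36a2. In the other 16 alternatives no related gene of the 6 lists passed (limma adjusted p), and 10 to 33 did at an unadjusted p under 0.05. None of the related genes and markers named by the rule changed sign. The higher and lower calls were 5 and 4 in the main setting, 5 and 1 with median scaling, 7 and 9 with the normexp correction and 5 and 7 when all probes of a gene were averaged. The cause of these changes was not tested. Glyatl1 was dim, and its fold moved with the background correction.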

Other observations

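Oat, which encodes the mitochondrial ornithine aminotransferase that uses the ornithine released when Gatm makes guanidinoacetate, was chosen after its values were seen. It had levels of 5.47, 4.96 and 4.69 in anthraquinone rats and 6.07, 6.03 and 5.30 in corn oil rats, with corn oil rat 3 inside the anthraquinone range. Its difference was -0.76 ± 0.28 (SE, limma adjusted p = 0.259) and -0.91 on its second probe. The naming rule does not pick Arg2 or Gamt either, whose values were known when they were added here. Arg2, the mitochondrial arginase gene, had overlapping groups and a difference of -0.74 ± 0.34 (SE, limma adjusted p = 0.334). Gamt, which encodes the enzyme that methylates guanidinoacetate to creatine, had levels of 4.58, 4.46 and 4.93 in anthraquinone rats and 4.36, 4.65 and 4.26 in corn oil rats, a difference of 0.23 ± 0.16 (SE, limma adjusted p = 0.495).

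Pipox, which encodes a peroxisomal oxidase of pipecolate and sarcosine that yields glycine from sarcosine, had levels of 0.26, -0.61 and 0.02 in anthraquinone rats and -0.68, -1.16 and -0.51 in corn oil rats. Rat 2 was the lowest of its group in both, the groups overlapped, and the difference was 0.67 ± 0.27 (SE, limma adjusted p = 0.283). Pipox too is outside the naming rule, and its values were known when it was added here.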
